A study of Mus musculus with 12 samples.

Results

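The MS4A genes encode small membrane proteins that cross the membrane several times, and 7 of them were followed here in mouse bone marrow-derived macrophages (BMDMs): Ms4a14, Ms4a4a, Ms4a4c, Ms4a6b, Ms4a6c, Ms4a6d and Ms4a7. These 7 are the rows of the listed genes among 35275 genes in the count files, and the annotation used here gives 19 genes in the counts a symbol that begins with Ms4a. They were chosen by a list drawn up with the levels and changes of these genes in the same libraries known, so every comparison of these genes between groups counts as used in choosing them. Their values and calls are a description, read beside the share of all genes called, and no p-value is printed for them. The family is best known for CD20 of B cells (Ms4a1) and for the beta chain of the high-affinity IgE receptor of mast cells (Ms4a2). Several other members are typical of monocytes and macrophages, where MS4A4A has been found beside the beta-glucan receptor dectin-1 and where the human MS4A locus is linked to the soluble form of the receptor TREM2.

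RNA-seq was performed on BMDMs from wildtype bone marrow that had been grown for 6 days with M-CSF, IL-4 and IL-10, cytokines that favor alternatively activated macrophages. One group received DMSO, the solvent control, another olaparib, a PARP inhibitor, and the last MNA (methyl-nicotinamide, an NAD derivative), each over the same 6 days. Each group had 4 libraries with the numbers 1 to 4, and the study's legend gives 4 donor mice. No sort of the cultured cells is stated, and the strain of these donors was not given in the sources used here. Marrow donors were aged 6 to 10 weeks and of either sex.

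Total counts ranged from 21146291 to 31446849 per library. The library labelled MNA 2 lay with the DMSO libraries on the first principal component (49.8% of the variance), where DMSO libraries had scores from -43.7 to -33.6, MNA 2 had -36.0 and the other MNA libraries had 59.9 to 63.4. Its values are therefore given apart. All 10 macrophage markers examined (among them Csf1r, Cd68 and Mertk) passed the filter on low counts. Their summed level was 4814 to 6051 CPM (the count scaled by the library's TMM size) in DMSO and 9232 to 11050 in olaparib. It was 5991 to 7865 in MNA 1, 3 and 4, and 4421 in MNA 2. The markers did not move together. Lyz2 held 1625 to 2532 CPM in DMSO and 5114 to 6559 in olaparib, and Cd68 1095 to 1309 and 812.8 to 868.5. Mrc1 held 548 to 829 CPM in DMSO and 129 to 185 in MNA 1, 3 and 4. With edgeR (adjusted p under 0.05), 5 of the 10 were called up and 1 down with olaparib. Without MNA 2, 3 were called up and 4 down with MNA. Of all genes, 14.3% were up and 12.8% down with olaparib, and 27.2% and 26.9% with MNA. The summed level of the 6 monocyte markers was 30410 to 50790 CPM in DMSO, 17070 to 27250 in olaparib, 555 to 891 in MNA 1, 3 and 4, and 30310 in MNA 2, and nearly all of it was Chil3. In bulk RNA, fewer cells of a type and less RNA per cell cannot be told apart, and the part of these shifts in the MS4A values was not tested.

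The MS4A genes in the counts lie in 1 cluster on chromosome 19 (GRCm38, 10962293 to 11640851), which spans 678559 bp. Ms4a14, Ms4a7 and Ms4a6d lie on the minus strand and Ms4a4a, Ms4a4c, Ms4a6c and Ms4a6b on the plus strand. All 7 passed the filter on low counts, although Ms4a4c had 1 or 2 counts in each DMSO library and passed only through the treated groups. Levels between genes are compared as CPM per kb of exon. In DMSO, Ms4a6d stood highest at 88.4 ± 9.48 CPM per kb (SD, n = 4) and Ms4a7 followed at 25.4 ± 3.94. Ms4a4a reached 4.32 ± 2.03, Ms4a14 1.49 ± 0.274, Ms4a6c 0.589 ± 0.0971, Ms4a6b 0.219 ± 0.0684 and Ms4a4c 0.0306 ± 0.0101 CPM per kb. No 2 neighbors in this order overlapped between their DMSO libraries. In olaparib Ms4a6c (4.83 ± 1.49) stood above Ms4a14 (3.08 ± 0.710), with overlapping libraries. In MNA 1, 3 and 4 Ms4a7 had the highest mean (93.9 ± 24.8 CPM per kb), and its libraries overlapped those of Ms4a6d (74.04 ± 10.96).

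**Figure D1:**
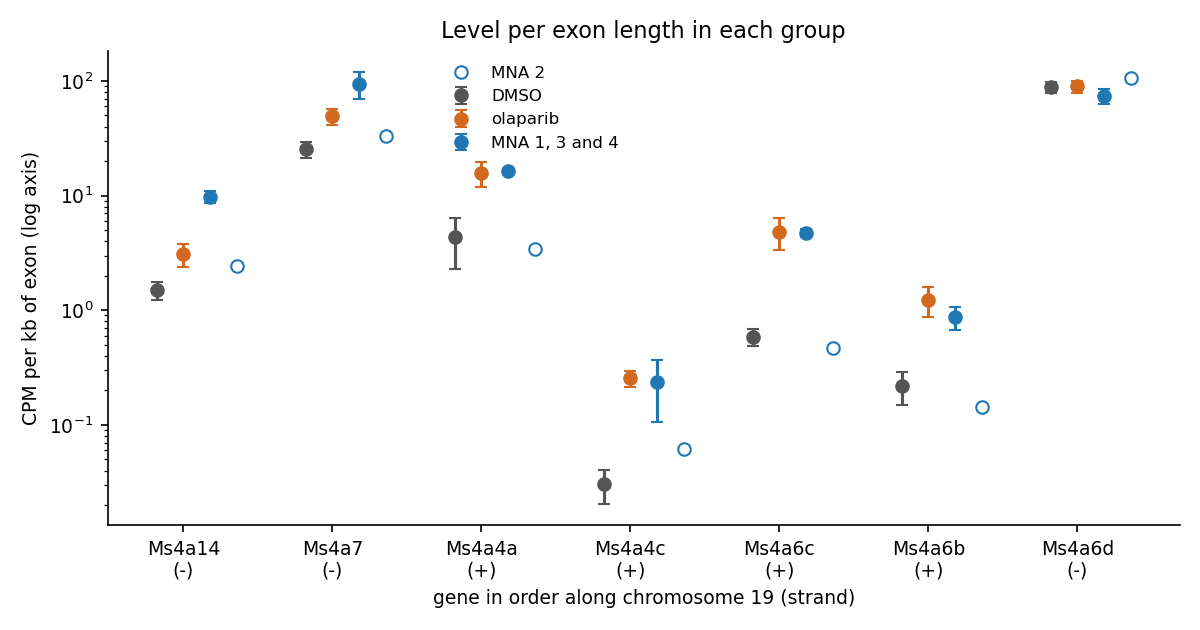
Mean level of each MS4A gene in CPM per kb of exon on a log axis, with genes in their order along chromosome 19 and the strand under each name. Filled points are group means with SD (DMSO and olaparib, n = 4, MNA 1, 3 and 4, n = 3), and the open circle is MNA 2. Ms4a6d differs least between the groups, while MNA 2 lies near the DMSO means.

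Against DMSO, edgeR's quasi-likelihood test (adjusted p under 0.05 over 12849 genes) called 5 of the 7 genes up in olaparib (Ms4a6c, Ms4a4c, Ms4a6b, Ms4a4a and Ms4a7) and none down, while 14.3% of all genes tested were called up and 12.8% down. In MNA 6 of the 7 were called up (all but Ms4a6d) and none down, beside 16.3% of all genes up and 12.3% down. Over 12 libraries, 0 members were down with either treatment at an unadjusted p under 0.05 with edgeR, and 0 were called down with DESeq2. The edgeR fit without MNA 2 had Ms4a6d down with MNA at that unadjusted threshold, although it was not called. Without MNA 2, 6 genes were called up in olaparib (background 22.5%) and 6 in MNA (background 27.2%). Ms4a4c could be tested only through the treated groups, and without it 4 of 6 genes were called up in olaparib and 5 of 6 in MNA over 12 libraries. Since the genes were listed with these comparisons known, nothing is read from the counts. The median log2 fold change of the 7 genes was 1.88 in olaparib and 1.67 in MNA, and that of all genes tested was 0.0038 and 2e-04. The 4 DMSO libraries serve as control for both treatments.

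In 6 of the 7 genes every olaparib library lay above every DMSO library, as did 20.7% of all genes tested. In 6 of the 7 MNA 1, 3 and 4 also all lay above DMSO, as did 27.2% of all genes. The exception was Ms4a6d in both cases. MNA 2 lay inside the DMSO range for Ms4a4a and Ms4a6c, below it for Ms4a6b, and above it for Ms4a14, Ms4a4c, Ms4a6d and Ms4a7.

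**Figure D2:**
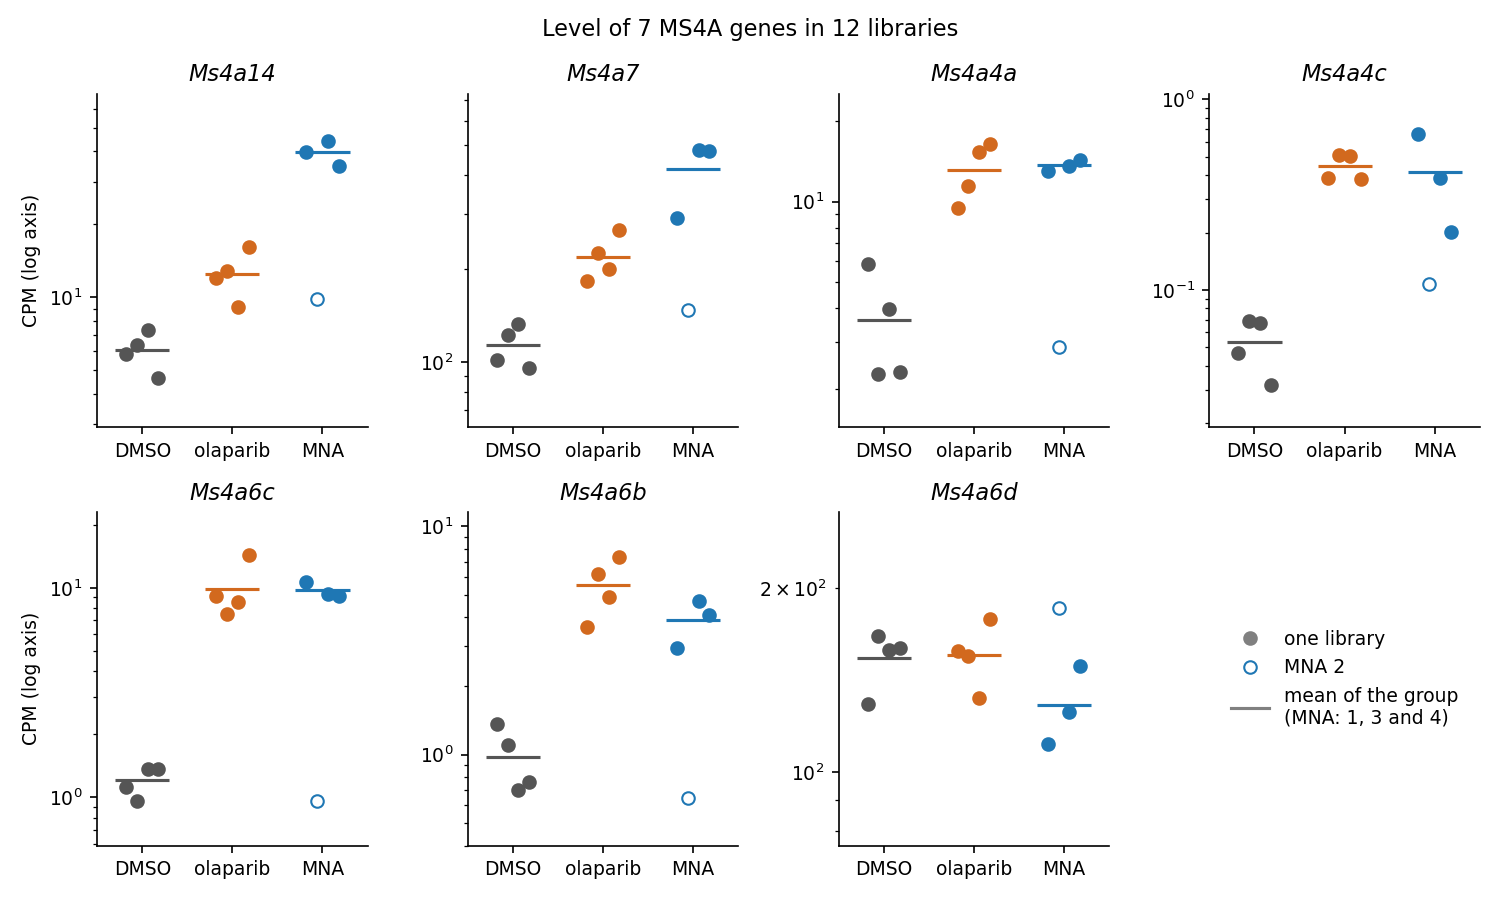
Level of each of the 7 genes in CPM on a log axis, 1 point per library, with lines at the group means (for MNA, the mean of 1, 3 and 4) and an open circle for MNA 2. In 6 genes the olaparib libraries and MNA 1, 3 and 4 sit above all DMSO libraries, and in Ms4a6d the groups overlap.

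Ms4a7 (ENSMUSG00000024672, chromosome 19, 11321039 to 11336146) is expressed by macrophages of several tissues. Its level was 101, 122, 133 and 95.3 CPM in DMSO 1 to 4 and 182, 224, 200 and 266 CPM in olaparib 1 to 4. MNA 1, 3 and 4 held 291, 484 and 480 CPM, and MNA 2 held 147 CPM. The groups formed steps without overlap from DMSO through olaparib to MNA once MNA 2 was set aside. Ms4a7 rose by a log2 fold change of 0.95 ± 0.30 (SE) in olaparib, a call that was lost when DMSO 1, 2, 3 or 4 or olaparib 2, 3 or 4 was left out. The change with MNA was 1.63 ± 0.30, and 1.89 ± 0.17 without MNA 2.

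Ms4a6d (ENSMUSG00000024679, chromosome 19, 11586604 to 11604849), a myeloid member described in the inhibition of the inflammasome, was the exception. Its level was 129, 167, 158 and 159 CPM in DMSO, 158, 154, 132 and 178 CPM in olaparib, 111, 125 and 149 CPM in MNA 1, 3 and 4 and 185 CPM in MNA 2. All groups overlapped. The log2 fold change was 0.02 ± 0.15 with olaparib, -0.10 ± 0.15 with MNA and -0.26 ± 0.12 without MNA 2, and none of these was called. With the replicate number as a block and without MNA 2, the change with MNA was -0.24 and was called, beside 27.2% of all genes called down, although the numbers were not shown to pair the MNA libraries.

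Because the groups separated in Ms4a7 and overlapped in Ms4a6d, the makeup of the family RNA differed between groups. Ms4a7 made up 36.1 to 43.6% of the counts of the 7 genes in DMSO, 48.6 to 54.0% in olaparib and 62.0 to 71.0% in MNA 1, 3 and 4, with 42.4% in MNA 2. Per kb of exon, the ratio of Ms4a7 to Ms4a6d was 0.233 to 0.327 in DMSO, 0.450 to 0.590 in olaparib, 1.02 to 1.50 in MNA 1, 3 and 4 and 0.309 in MNA 2. This ratio is taken within each library and does not depend on library depth.

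Ms4a14 (ENSMUSG00000099398, chromosome 19, 11301249 to 11314454) lies next to Ms4a7 on the same strand and has by far the longest coding sequence of the 7, at 3696 bases against 651 to 801 in the others. Its level was 5.86, 6.37, 7.34 and 4.67 CPM in DMSO and 11.98, 12.89, 9.13 and 16.1 CPM in olaparib. MNA 1, 3 and 4 held 39.9, 44.2 and 34.7 CPM and MNA 2 held 9.81 CPM. All olaparib libraries lay above DMSO and below MNA 1, 3 and 4. The log2 fold change with olaparib was 1.05 ± 0.37, which was not called by edgeR over 12 libraries and was called without MNA 2 (1.05 ± 0.17) or by DESeq2. With MNA it was 2.41 ± 0.37, and 2.71 ± 0.17 without MNA 2.

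The promoter windows of Ms4a14 and Ms4a7 are shown because these neighbors followed each other most closely. Each runs from 250 bases before to 50 bases after the RefSeq start on the minus strand of GRCm38.p6, at chr19:11314405-11314704 for Ms4a14 and chr19:11336097-11336396 for Ms4a7. Capitals mark a match to TTC and GAA with 4 bases between them, a spacing bound by STAT6 downstream of IL-4.
Ms4a14: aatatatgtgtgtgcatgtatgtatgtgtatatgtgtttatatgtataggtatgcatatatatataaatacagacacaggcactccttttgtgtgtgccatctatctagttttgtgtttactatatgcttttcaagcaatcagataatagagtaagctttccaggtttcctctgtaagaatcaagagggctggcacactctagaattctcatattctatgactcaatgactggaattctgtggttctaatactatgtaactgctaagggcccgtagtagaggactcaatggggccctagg
Ms4a7: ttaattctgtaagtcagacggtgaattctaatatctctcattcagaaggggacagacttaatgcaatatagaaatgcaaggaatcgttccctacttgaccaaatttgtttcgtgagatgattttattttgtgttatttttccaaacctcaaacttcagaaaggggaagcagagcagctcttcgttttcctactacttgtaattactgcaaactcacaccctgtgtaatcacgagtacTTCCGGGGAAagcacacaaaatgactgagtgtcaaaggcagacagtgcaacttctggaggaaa
The match in Ms4a7 spans bases 238 to 247 of the printed window, just before its start, and this spacing occurs in 6.95% of the 32851 RefSeq windows of this length. Ms4a7 has another RefSeq window, at chr19:11334646-11334945, which is not printed. That window and the Ms4a14 window held none of the 4 motifs searched on both strands.

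Those motifs were the STAT spacing above, TTC and GAA with 3 bases between (8.30% of windows), GAAA repeated with 2 bases between as in interferon-stimulated response elements (3.44%), and GAGGAAG, the core bound by the macrophage factor PU.1 (13.6%). RefSeq windows were at hand for 6 of the 7 genes, in 7 windows, and the only matches were those of Ms4a7 and Ms4a6b, both with the first spacing. A match describes letters, not binding.

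Ms4a4a (ENSMUSG00000101389, chromosome 19, 11375523 to 11392790) is the member associated with dectin-1 in alternatively activated macrophages. Its level was 5.86, 2.27, 3.99 and 2.32 CPM in DMSO and 9.47, 11.5, 15.3 and 16.4 CPM in olaparib. MNA 1, 3 and 4 held 13.0, 13.6 and 14.3 CPM, within the olaparib range, while MNA 2 held 2.87 CPM. Ms4a4a rose by a log2 fold change of 1.88 ± 0.45 with olaparib and of 1.61 ± 0.45 with MNA, or 1.95 ± 0.27 without MNA 2. The MNA call over 12 libraries was lost when DMSO 2, 3 or 4 or MNA 1, 3 or 4 was left out.

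Ms4a6c (ENSMUSG00000079419, chromosome 19, 11469366 to 11482192), a member found in monocytes, had the largest fitted change with olaparib of the 7 genes. Levels of 1.13, 0.963, 1.37 and 1.37 CPM in DMSO compared with 9.19, 7.47, 8.58 and 14.4 CPM in olaparib, a log2 fold change of 3.03 ± 0.55. MNA 1, 3 and 4 held 10.7, 9.38 and 9.17 CPM and MNA 2 held 0.967 CPM. The log2 fold change was 2.63 ± 0.55 with MNA and 2.999 ± 0.223 without MNA 2. The gene overlaps the antisense gene BE692007, with which it shares 51.0% of the 31-base words of its transcripts in either orientation. BE692007 held 3 to 5 counts in DMSO libraries and 17 to 45 in olaparib libraries. It passed the filter on low counts only through the treated groups, so no p-value is printed for it. It was called up with olaparib (log2 fold change 2.57 ± 0.57) and MNA (2.56 ± 0.57). The strand setting of the counts was not given in the sources used here, so reads of the overlapping pair cannot be assigned with certainty.

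Ms4a6b (ENSMUSG00000024677, chromosome 19, 11516512 to 11531256), which is also known from T cells, held 1.36, 1.10, 0.704 and 0.762 CPM in DMSO and 3.64, 6.17, 4.92 and 7.32 CPM in olaparib. MNA 1, 3 and 4 held 2.92, 4.71 and 4.10 CPM and MNA 2 held 0.645 CPM, less than any DMSO library. The change with olaparib was 2.502 ± 0.482 on the log2 scale. With MNA it was 1.67 ± 0.48, and 2.02 ± 0.29 without MNA 2. The MNA call over 12 libraries was lost without DMSO 2, 3 or 4 or MNA 1, 3 or 4.

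Ms4a6b and Ms4a6c are the closest pair in sequence, with 85.4% of aligned coding bases identical, against 81.2% for Ms4a6b and Ms4a6d and 59.3 to 79.0% for the other pairs without Ms4a14. Of the 31-base words of Ms4a6c, 13.9% also occur in Ms4a6b, so some reads could fit both genes. Their promoter windows matched in 64.0% of bases, beside a median of 51.7% over the 15 pairs of member windows. Both windows are printed for that likeness, on the plus strand of GRCm38.p6 at chr19:11518309-11518608 and chr19:11469118-11469417, with capitals for their longest shared run of 48 bases.
Ms4a6b: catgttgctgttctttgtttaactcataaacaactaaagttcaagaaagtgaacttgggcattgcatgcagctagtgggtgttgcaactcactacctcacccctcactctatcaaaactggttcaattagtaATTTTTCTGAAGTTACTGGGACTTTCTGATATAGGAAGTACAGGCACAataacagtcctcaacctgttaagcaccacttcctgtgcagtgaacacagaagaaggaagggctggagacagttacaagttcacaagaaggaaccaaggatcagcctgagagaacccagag
Ms4a6c: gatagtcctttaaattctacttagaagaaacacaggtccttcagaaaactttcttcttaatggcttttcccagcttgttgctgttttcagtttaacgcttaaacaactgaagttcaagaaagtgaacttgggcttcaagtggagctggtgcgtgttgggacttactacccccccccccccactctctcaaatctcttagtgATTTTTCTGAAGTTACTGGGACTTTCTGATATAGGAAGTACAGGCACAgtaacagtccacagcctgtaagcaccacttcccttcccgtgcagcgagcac
The shared run ends 71 bases before the RefSeq start in Ms4a6b and 2 bases before it in Ms4a6c. The Ms4a6b window lies inside the annotated gene, whose span begins at 11516512. The Ms4a6c window holds the first base of its gene, 11469366. The distances are therefore not measured to like points of the annotated genes. The STAT spacing in the Ms4a6b window lies after the start, at bases 259 to 268, outside the shared run. Ms4a6d, the other close relative in coding sequence, did not follow the pair in its levels.

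Ms4a4c (ENSMUSG00000024675, chromosome 19, 11404770 to 11427246), a member known from monocytes, was near the floor of detection in DMSO. DMSO libraries held 1, 2, 2 and 1 counts, olaparib libraries 11, 13, 12 and 11, MNA 1, 3 and 4 held 16, 10 and 5, and MNA 2 held 3 counts. Summed over libraries and divided by depth, olaparib was 8.24 times DMSO (exact 95% interval 3.52 to 23.6) and MNA 1, 3 and 4 were 7.69 times DMSO (3.16 to 22.5), where the intervals cover counting error only. The edgeR call with MNA was lost without MNA 1 or MNA 3. Of its 31-base words, 13.0% also occur in Ms4a4b.

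**Figure D3:**
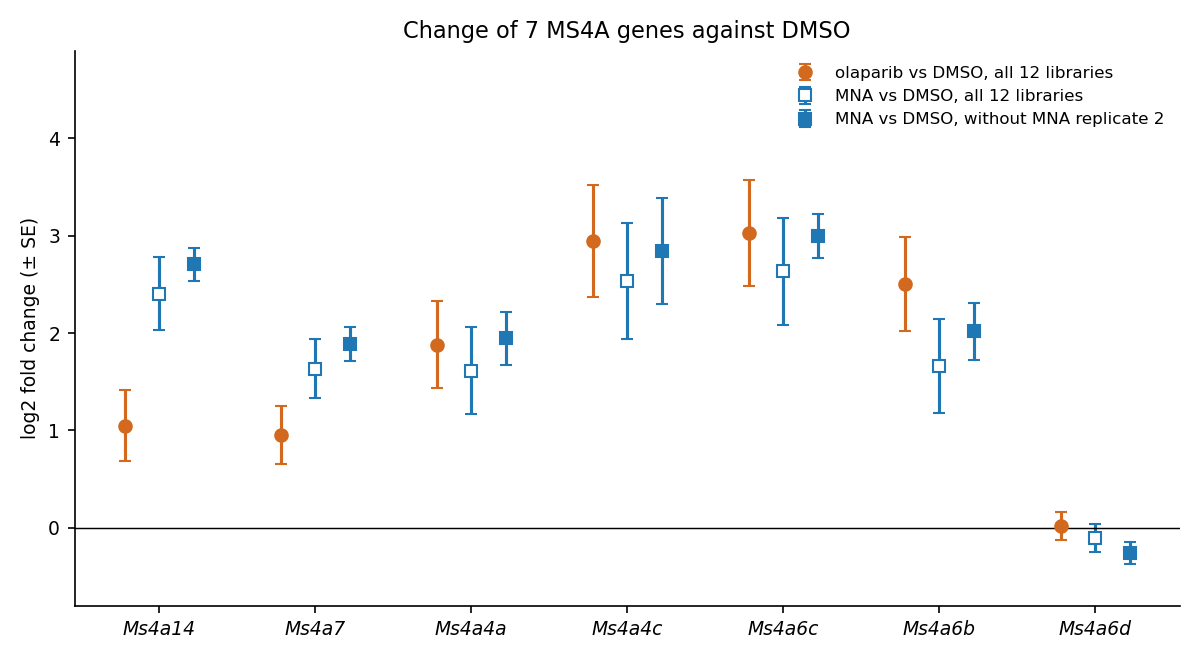
Log2 fold change of each gene against DMSO with its SE from edgeR, for olaparib (circles) and for MNA with all 12 libraries (open squares) or without MNA 2 (filled squares). Ms4a14 and Ms4a7 sit higher with MNA than with olaparib, the 4 genes between them and Ms4a6d have overlapping error bars, and Ms4a6d sits near 0.

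The treatments were also compared with each other, a contrast that leaves the DMSO libraries out of the difference. Over 12 libraries Ms4a14 alone was called, lower in olaparib by a log2 difference of -1.36 ± 0.36, beside 10.9% of all genes called lower and 10.9% called higher. That call was lost without olaparib 3 or MNA 3. Without MNA 2, Ms4a14 (-1.66 ± 0.16) and Ms4a7 (-0.94 ± 0.17) were called lower in olaparib, beside 20.7% of all genes. In these 2 genes every olaparib library lay below MNA 1, 3 and 4, as in 22.8% of all genes. In the other 5 genes the olaparib libraries overlapped MNA 1, 3 and 4. Without MNA 2 the differences were 0.49 ± 0.26 for Ms4a6b, 0.28 ± 0.12 for Ms4a6d, 0.10 ± 0.40 for Ms4a4c, 0.03 ± 0.19 for Ms4a6c and -0.05 ± 0.25 for Ms4a4a, none called. With the replicate block in that fit, Ms4a6d was called higher in olaparib than in MNA (0.26), beside 22.7% of all genes.

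Within the family, Ms4a14 and Ms4a7 were the closest pair (Pearson r = 0.95 of log2 CPM over 12 libraries). Ms4a4a, Ms4a4c, Ms4a6b and Ms4a6c had r of 0.85 to 0.94 among themselves, and Ms4a6d had negative r with every other member (-0.47 to -0.29). These values mostly carry the difference between groups, since the libraries of a group lie together. With group means removed and MNA 2 left out, Ms4a14 and Ms4a7 had r = 0.52, Ms4a6b and Ms4a7 0.53 and Ms4a6d and Ms4a7 0.65, whereas Ms4a6b and Ms4a6c had -0.07.

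**Figure D4:**
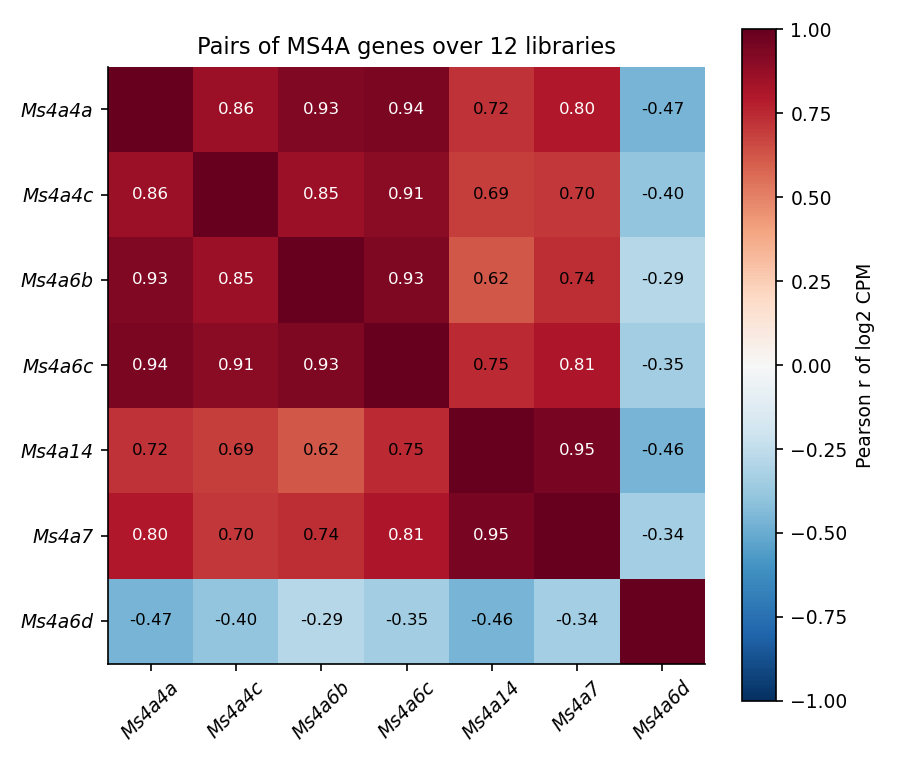
Pearson r of log2 CPM over 12 libraries for each pair of the 7 genes, blue for negative and red for positive values. Ms4a14 and Ms4a7 form the pair with r = 0.95, 4 genes form a block with r of 0.85 to 0.94, and Ms4a6d is negative with every other gene.

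Genes outside the family with the most similar levels were sought among 9527 protein-coding genes averaging at least 100 counts, as the 3 with the highest r for each member. Ms4a14 was most like Cep131 (r = 0.98), a centrosome gene, Ncf4 (0.98), a subunit of the phagocyte NADPH oxidase, and Ogfrl1 (0.97). Ms4a7 was most like Mblac2 (0.98), Myl12b (0.97), a myosin light chain, and Ptms (0.97). For Ms4a4a these were Gpr155 (0.98), Dhx58 (0.98), a cytosolic RNA sensor of the interferon response, and Cpq (0.97).

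For Ms4a6c the list read Mkrn1 (0.99), Rfc2 (0.99), a subunit of the replication clamp loader, and Fuca2 (0.98), and for Ms4a6b it read Prdx2 (0.98), a peroxiredoxin, Dpys (0.97) and Slc25a4 (0.97), a mitochondrial ADP/ATP carrier. Ms4a4c was followed by Mturn (0.96), Tfdp2 (0.96) and Rtl5 (0.95). Ms4a6d was most like Ilf2 (0.96), Tfpt (0.90) and Drg2 (0.87). With so many candidates over 12 libraries high values of r arise easily, and with rank correlation none of the 3 genes named for Ms4a14, Ms4a4c or Ms4a6c stayed among the first 3.

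Of the 12 other genes with an Ms4a symbol, 8 had 3 counts or fewer in every library, 5 of them with 0 counts throughout. Ms4a1 (CD20) alone was tested, with 1, 4, 13 and 6 counts in DMSO, 9, 9, 9 and 10 in olaparib, 21, 24 and 14 in MNA 1, 3 and 4 and 7 in MNA 2. Ms4a1 passed the filter on low counts with the MNA libraries and did not pass it with olaparib and DMSO alone. Its entry into the test rested on the group where it was high, so no p-value is printed for it. It was called up with MNA (log2 fold change 1.60 ± 0.52) and not with olaparib (0.72 ± 0.54). The difference between the treatments was not called (-0.88 ± 0.49). Without MNA 2, edgeR called it up with MNA (1.87 ± 0.46) and lower in olaparib than in MNA (-1.16 ± 0.44). The MNA call was lost without DMSO 1, 2 or 4, any of the olaparib libraries, or MNA 1, 3 or 4. The 6 B cell markers moved beside it, with a summed level of 1.55 to 3.08 CPM in DMSO, 3.39 to 8.67 in olaparib, 13.8 to 22.3 in MNA 1, 3 and 4 and 2.79 in MNA 2, mostly from Ighm, and their part in the result was not tested. Without MNA 2, 3 of these markers were called up with MNA. Cd79b, a chain of the B cell receptor, held 0 to 0.508 CPM in DMSO and 1.49 to 3.36 in MNA 1, 3 and 4, while Ebf1 was at 0 in 5 of the libraries.

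Ms4a4b, a T cell member, summed to 1 count over the DMSO libraries, 10 over olaparib and 9 over MNA 1, 3 and 4. The ratio to DMSO was 10.5 (exact 95% interval 1.50 to 456) for olaparib and 13.4 (1.86 to 587) for MNA. The 7 T and NK cell markers, which include Ms4a4b, summed to 0.0938 to 0.637 CPM in DMSO, 1.17 to 4.29 in olaparib, 3.44 to 4.14 in MNA 1, 3 and 4 and 0.824 in MNA 2. Their part in the values of Ms4a4b, Ms4a4c and Ms4a6b was not tested. Ms4a3, a member of granulocyte-monocyte progenitors, had 0 counts in DMSO, olaparib and MNA 2 and 1, 2 and 4 counts in MNA 1, 3 and 4. The 9 markers of granulocyte-monocyte progenitors and neutrophils summed to 1.38 to 7.83 CPM in DMSO and 2.93 to 3.85 in olaparib. They summed to 3.04 to 51.5 in MNA 1, 3 and 4 and 1.32 in MNA 2. The high end was MNA 4 alone, where S100a9 held 20.8 CPM against 1.11 in MNA 1 and 2.70 in MNA 3. The part of these markers in the Ms4a3 counts was not tested. Ms4a2 had 6 counts over DMSO, 2 over olaparib and 3 over MNA 1, 3 and 4, and Fcer1a, the alpha chain of the same receptor, stayed at or under 3 counts in every library.

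Tmem176a and Tmem176b encode related membrane proteins outside the cluster. They were also chosen with earlier results of these data known, so their p-values are a description and not a test. Tmem176a held 7 to 12 counts in DMSO, 3 to 17 in olaparib and 168, 62 and 78 in MNA 1, 3 and 4. Tmem176b held 16 to 39 counts in DMSO, 13 to 35 in olaparib, 262, 186 and 173 in MNA 1, 3 and 4 and 18 in MNA 2. Its log2 fold change was 2.91 ± 0.64 with MNA (edgeR, adjusted p = 0.0154) and 0.06 ± 0.67 with olaparib (adjusted p = 0.959). Tmem176a changed by 3.11 ± 0.82 with MNA (adjusted p = 0.0222) and by -0.05 ± 0.92 with olaparib (adjusted p = 0.973). Between the treatments both were lower in olaparib, by -3.16 ± 0.83 for Tmem176a (adjusted p = 0.0187) and -2.85 ± 0.64 for Tmem176b (adjusted p = 0.00895).

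Genes whose products act with MS4A proteins in myeloid cells formed a list of 8: Clec7a, Syk, Card9, Trem2, Tyrobp, Fcer1g, Adam10 and Adam17. The list was drawn up with earlier results of these data known. Its calls and p-values are therefore a description and not a test. With olaparib 4 were called up and 1 down, and with MNA 3 up and 1 down, beside the shares of all genes given above. The median log2 fold change of the list was 0.18 with olaparib and 0.07 with MNA. Clec7a, which encodes dectin-1, held 281 to 395 CPM in DMSO, 587 to 934 in olaparib, 899 to 983 in MNA 1, 3 and 4 and 296 in MNA 2. It rose by a log2 fold change of 1.11 ± 0.30 with olaparib (adjusted p = 0.0192) and 1.24 ± 0.30 with MNA (adjusted p = 0.0187). Tyrobp, the adaptor DAP12 of TREM2, rose by 1.01 ± 0.20 with olaparib (adjusted p = 0.00476) and 0.71 ± 0.20 with MNA (adjusted p = 0.0265).

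Trem2 rose with olaparib by 0.42 ± 0.07 (adjusted p = 0.0013), and its change with MNA was 0.07 ± 0.07 (adjusted p = 0.452). The difference between the treatments was called (0.36 ± 0.07, adjusted p = 0.00301). Adam10, a protease that sheds TREM2, rose by 0.17 ± 0.06 with olaparib (adjusted p = 0.0403), and Adam17 was not called with either treatment. Fcer1g, the Fc receptor gamma chain, rose by 0.35 ± 0.11 with MNA (adjusted p = 0.0342). Syk, the kinase downstream of dectin-1, fell by 0.25 on the log2 scale with olaparib (adjusted p = 0.0264) and by 0.24 with MNA (adjusted p = 0.0312), and Card9, its adaptor, was not called. With MNA, the number of genes called in the list was 0 without DMSO 2, DMSO 3, MNA 1, MNA 3 or MNA 4, 1 without DMSO 4 and 2 without DMSO 1. With olaparib it was 2 without DMSO 2 or olaparib 4 and 3 without DMSO 3, DMSO 4 or olaparib 1. The share of all genes called was not computed for these fits, so the losses are not read as particular to the list.

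**Figure D5:**
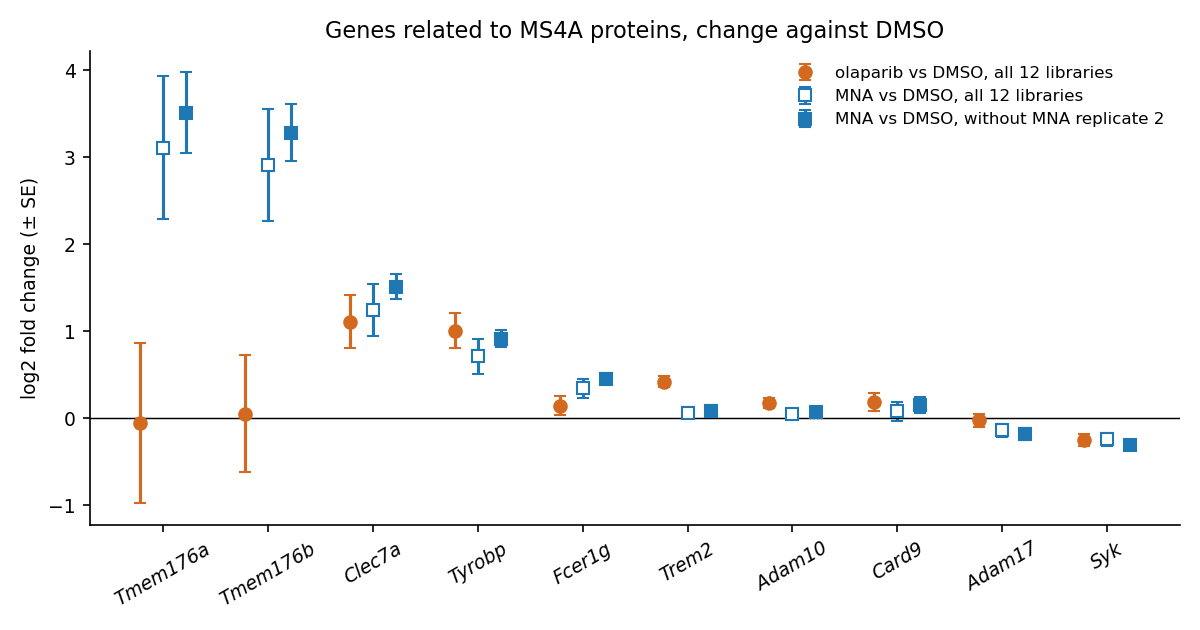
Log2 fold change against DMSO with its SE from edgeR for Tmem176a, Tmem176b and the 8 partner genes, with circles for olaparib, open squares for MNA over 12 libraries and filled squares for MNA without MNA 2. Both Tmem176 genes are near 0 with olaparib and near 3 with MNA, while Clec7a and Tyrobp are above 0 with both.

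The neighbors were also listed with earlier results of these data known, so their p-values are a description and not a test. Among 20 genes with other symbols within the cluster or next to it, 4 were tested over 12 libraries. Another of them, 1700025F22Rik, which RefSeq names Ms4a19, had 0 counts in every library. BE692007, described above, was called up with both treatments, AW112010 was called up with MNA (log2 fold change 3.47 ± 0.81, adjusted p = 0.0169) and not with olaparib (1.39 ± 0.80, adjusted p = 0.21), and Ccdc86 and Gm6501 were called with neither. Without MNA 2, edgeR called AW112010 up with olaparib (1.38 ± 0.48, adjusted p = 0.0301) and lower in olaparib than in MNA (-2.47 ± 0.42, adjusted p = 0.000345). AW112010, an interferon-inducible transcript, held 0.469 to 1.38 CPM in DMSO, 1.13 to 5.78 in olaparib, 9.17, 16.6 and 22.6 in MNA 1, 3 and 4 and 0.680 in MNA 2. Ccdc86 held 27.2 to 31.8 CPM over all libraries. The antisense gene 4930526L06Rik, whose span holds Ms4a1, was tested only without MNA 2. It held 0 to 3 counts in DMSO libraries, 0 to 6 in olaparib libraries and 12, 15 and 11 in MNA 1, 3 and 4. It therefore passed the filter only through the MNA libraries where it was high, and no p-value is printed for it. In that fit edgeR called it up with MNA (2.90 ± 0.69) and not with olaparib (0.99 ± 0.80). It was also called lower in olaparib than in MNA (-1.92 ± 0.62).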

How the data were processed

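RNA-seq of 12 libraries was analysed. For each library the authors deposited whole-number read counts, 1 value for each Ensembl gene, without normalization. They were made from single-end reads of stranded mRNA libraries with STAR 2.5.2b on GRCm38.p5. Gene names, positions and exon lengths came from GENCODE vM21 (GRCm38), which held 34490 of the 35275 gene IDs. The members and all lists were chosen with earlier results of these data known.

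Genes were kept by filterByExpr (minimum count 10, minimum total 15), which left 12849. Counts were tested with edgeR 4.0.16 in R 4.3.3 (quasi-likelihood, TMM) in 1 fit of 12 libraries, and again without MNA 2. Calls used a Benjamini-Hochberg adjusted p under 0.05. CPM used TMM library sizes, and log2 CPM a prior count of 2. The standard error came from the F value. P-values measure the spread between these libraries. Ratios of low counts have exact 95% intervals, and 3 counts were taken as the floor.

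Named genes were all members, other MS4A genes above the floor, Tmem176a and Tmem176b, 8 partners, called neighbors and the 3 genes most like each member. Alternatives were DESeq2 1.42.0, RLE factors, library totals alone, no filter, a mean of at least 50 counts, the 2 groups alone, a threshold of 0.01, the replicate block and each library left out. The replicate block with MNA 2 left out was also run. Deviations of same-numbered DMSO and olaparib libraries had a Pearson r of 0.227, 0.172, 0.225 and 0.408 across genes, so the numbers pair these groups. Those of MNA libraries did not all exceed 0.1. Deviations were taken from group means, and that of MNA included MNA 2. The check therefore could not decide whether the numbers pair the MNA libraries. The code was tested on simulated data. Shared words, coding identity and RefSeq promoter windows (GRCm38.p6) were computed with Python 3.11.15 and Biopython.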

Additional observations from a re-analysis of the deposited data

Results flagged for a closer look

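Within a group of 4 libraries, 2 of the 21 pairs of gene and group examined had a library far from the other 3. Chance flags about 1 in 20 such groups, but both cases were MNA 2, which had already been set apart, so they are a description and not a test. Ms4a4a stood at 2.865 CPM there against 12.95 to 14.32 CPM in MNA 1, 3 and 4, and Ms4a6c stood at 0.967 CPM against 9.169 to 10.69 CPM. Both values lie inside the range of the DMSO libraries.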

How the results depend on the processing

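Depth limits Ms4a4c, Ms4a1, Ms4a4b and Ms4a3, which had few counts per library. Counts below are of genes called against 5 (olaparib) and 6 (MNA) members up and 1 member lower in olaparib than in MNA. At an adjusted p under 0.01 they were 3, 0 and 0 (6.63%, 0% and 3.64% of all genes), and partners called numbered 2 with olaparib and 0 with MNA. With the 2 groups alone, members up with MNA, members lower in olaparib than in MNA, partners with MNA and other MS4A genes with MNA each numbered 0, where 0% of all genes were called with MNA in either direction and 6.73% were lower in olaparib than in MNA. At an unadjusted p under 0.05, edgeR then gave 5, 1, 4 and 1, and DESeq2 over 12 libraries called 6, 1, 4 and 1. Ms4a1 was also lost (0 called) at 0.01, without a filter and with a minimum mean of 50 counts. The replicate block over 12 libraries left the counts of members at 5, 6 and 1 and changed no member's call. With the replicate block and without MNA 2, 1 member (Ms4a6d) was called lower with MNA than in DMSO and 1 higher in olaparib than in MNA, 2 were lower in olaparib than in MNA, and 4 partners differed between treatments, beside 27.2% of all genes lower with MNA and 22.7% higher and 21.4% lower in olaparib than in MNA. With 1 library left out, members up ranged from 4 to 6 with olaparib and from 3 to 6 with MNA, members down from 0 to 0 with both, and between treatments 0 to 0 were higher and 0 to 2 lower in olaparib. Partners called ranged from 2 to 5 with olaparib, 0 to 4 with MNA and 1 to 3 between treatments, and other MS4A genes from 0 to 0, 0 to 1 and 0 to 1. Among the fits with 1 library left out, the share of all genes called was computed only without MNA 2. Calls lost in the other fits are therefore not read as particular to these genes. Uncalled log2 fold changes turned for Ms4a6d with olaparib (-0.055 without DMSO 1, -0.052 without olaparib 4, within a range of -0.055 to 0.089) and for Ms4a4a between treatments (-0.052 without MNA 2, within a range of -0.052 to 0.423). With the longest transcript as length, Ms4a6d stood at 108.2 and Ms4a7 at 31.3 CPM per kb in DMSO. The cause of these changes was not tested.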
